A study of Caenorhabditis elegans with 12 samples.

Results

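The insulin signalling pathway of *C. elegans* was followed here through 8 genes, from the insulin receptor *daf-2* to the FOXO transcription factor *daf-16*, in sorted BAG neurons with and without *arcp-1*. The genes were chosen by name, as the receptor and its direct signalling chain: *daf-2*, *age-1*, *daf-18*, *pdk-1*, *akt-1*, *akt-2*, *sgk-1* and *daf-16*. They are 8 of the 46766 annotated genes, and all 8 were among the 22542 genes with normalized counts and the 12096 genes tested. For 7 of the genes, both genotypes passed the filter on low counts (a CPM, the read count scaled to the depth of its library, of at least 1 in 6 or more libraries) in all 6 of their libraries. *sgk-1* passed with 5 libraries of each genotype.

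In this pathway, insulin-like peptides bind the receptor DAF-2, which activates the phosphoinositide 3-kinase AGE-1. The lipid made by AGE-1 recruits PDK-1 and the AKT kinases, and the phosphatase DAF-18 removes it again. AKT-1 and AKT-2 phosphorylate DAF-16 and hold it in the cytoplasm, so that low insulin signalling lets DAF-16 enter the nucleus and change the expression of its target genes. In worms the pathway is known for setting lifespan, stress resistance and entry into the dauer stage, and it also acts in sensory neurons during learning.

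RNA was sequenced from BAG neurons, a pair of ciliated head neurons that sense CO2 and O2. The controls (strain AX7210) carried *npr-1(ad609)*, a loss of the neuropeptide receptor gene *npr-1*. Strain AX7207, called *arcp-1* mutants, carried *npr-1(ad609)* and in addition *arcp-1(db1082)*, a premature stop codon from a forward genetic screen in the gene of an ankyrin repeat protein of sensory endings. Both strains carried *ynIs64*, which expresses GFP from the *flp-17* promoter and was used for the sort, and both were grown at 20 °C and sampled as day 1 adults, with 6 biological replicates of about 4000 sorted cells per genotype. A single allele stands for the loss of *arcp-1*, so what belongs to *db1082* and what belongs to its strain cannot be told apart.

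The libraries differed in depth and in content. Between 374550 and 8683395 reads per library were recovered from the normalized counts, and 4 libraries had fewer than 1000000 reads (mutant replicates 3 and 4, control replicates 1 and 5). All 6 BAG markers (*flp-17*, *gcy-9*, *gcy-31*, *gcy-33*, *ets-5*, *pde-1*) were tested and none passed the test between the genotypes. Their TPM (a transcript level scaled by length and depth) summed to 1225 to 6281 in the mutants and 1188 to 5266 in the controls. RNA of other cells was present as well. The 6 body wall muscle markers summed to 3401 to 10610 TPM in the mutants and 2722 to 10841 TPM in the controls. Most of that sum was 1 gene, *unc-54* (mean 5993.5 TPM over the 12 libraries), followed by *mlc-1* (343.5 TPM). Which cells the *unc-54* reads came from was not tested. The 6 hypodermis markers summed to 1841 to 9058 TPM in the mutants and 3385 to 13900 TPM in the controls. In such bulk samples, fewer cells of a type and less RNA per cell cannot be told apart. *arcp-1* itself was lower in the mutants, at 2477 ± 1213 normalized counts (SD, n = 6) against 7947 ± 3109 in the controls (log2 fold change −1.76, SE 0.40, adjusted p = 0.0308, limma with Benjamini-Hochberg adjustment).

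All 8 genes were read in BAG libraries, but their levels spanned a wide range. *akt-1* had the highest level at 181.9 ± 67.4 TPM (SD, n = 12 libraries), above 94.9% of the genes tested. *daf-2* followed at 52.2 ± 14.8 TPM and *daf-16* at 47.03 ± 7.82 TPM. *daf-18* had 29.9 ± 10.2 TPM and *age-1* 21.9 ± 3.903 TPM. The kinases *akt-2* (13.2 ± 4.47 TPM), *pdk-1* (6.95 ± 3.30 TPM) and *sgk-1* (4.31 ± 2.58 TPM) were lowest. The means thus placed the transcription factor next to the receptor and *akt-1* above every other member. These are levels of libraries that also held RNA of other cells, and the part of BAG neurons in each level was not tested.

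The order was tested between neighbours over the 12 libraries, with exact two-sided sign-flip permutation tests of log2(TPM + 1) adjusted over the 7 pairs. *akt-1* exceeded *daf-2* in 12 of 12 libraries (adjusted p = 0.00171), *daf-16* exceeded *daf-18* in 10 (adjusted p = 0.00798), *age-1* exceeded *akt-2* in 12 (adjusted p = 0.00171) and *akt-2* exceeded *pdk-1* in 11 (adjusted p = 0.0359). The other 3 neighbours did not differ beyond their spread: *daf-2* and *daf-16* (adjusted p = 0.434), *daf-18* and *age-1* (adjusted p = 0.0937), and *pdk-1* and *sgk-1* (adjusted p = 0.102). Of the 4 pairs that passed, *akt-1* exceeded *daf-2* and *age-1* exceeded *akt-2* in 6 of 6 libraries of each genotype. *daf-16* exceeded *daf-18* in 4 of 6 controls (mean log2 difference 0.28) and 6 of 6 mutants (1.12), and *akt-2* exceeded *pdk-1* in 5 of 6 controls (0.36) and 6 of 6 mutants (1.35). *daf-2* exceeded *daf-16* in 6 of 6 controls and 3 of 6 mutants. Within a single genotype the smallest possible permutation p is 0.0312, and no neighbours passed after adjustment.

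**Figure D1:**
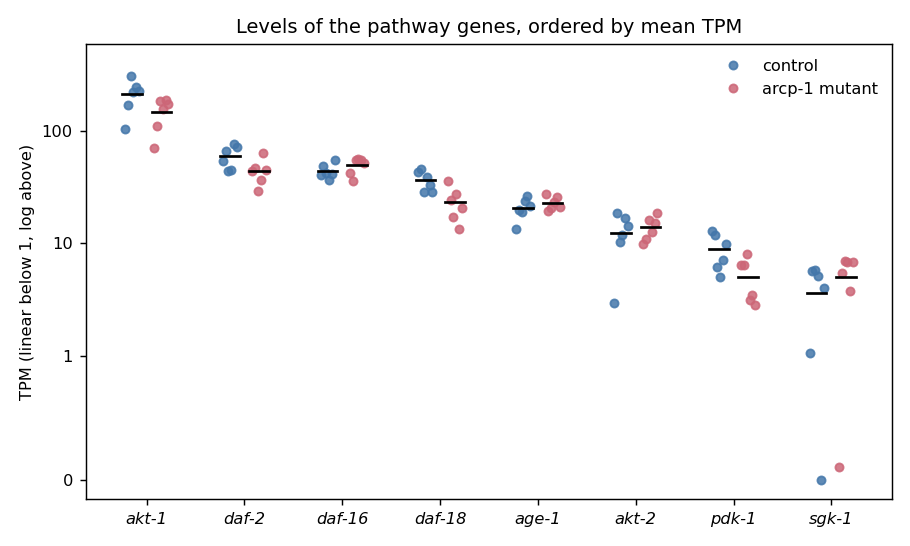
Levels of the 8 genes in TPM (y axis, linear below 1 and logarithmic above), ordered by mean TPM, with one point per library and a black line at the mean of each genotype (n = 6). *akt-1* lies on top in both genotypes, and *sgk-1* is listed at 0 TPM in control replicate 5.

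None of the 8 genes passed the threshold of the genome-wide test between *arcp-1* mutants and controls (limma, Benjamini-Hochberg adjusted p below 0.05), where 201 of 12096 genes did (1.66%), 161 of them higher (1.33%) and 40 lower (0.331%) in the mutants. edgeR and DESeq2 on the recovered reads also called 0 of the 8, and at an unadjusted p below 0.05 limma gave 1 of the 8, *daf-18*, against 10.4% of all genes. The genotypes overlapped for all 8 genes, while they did not overlap for 1.95% of all genes. The fitted value was lower in the mutants for 4 genes (*daf-2*, *daf-18*, *pdk-1*, *akt-1*) and higher for the other 4. The median log2 fold change of the 8 was −0.13, beside −0.02 over all genes tested. The replicates are biological, and the p-values measure the spread among these cultures.

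The receptor *daf-2* (WBGene00000898) lies on chromosome III from 2995487 to 3040860 on the minus strand of WS255, the genome release used by the authors. It is on the chromosome that also carries *arcp-1*, with 706699 bases between them. Normalized counts of *daf-2* ranged from 352.0 to 737.4 with a median of 546.4 in the mutants, and from 499.8 to 845.0 with a median of 787.7 in the controls. All 6 mutants were below the control median, and 2 were below the lowest control. The difference did not pass the test (log2 fold change −0.42, SE 0.21, adjusted p = 0.514, limma; exact permutation p = 0.0779). Without the 4 libraries under 1000000 reads the log2 fold change was −0.09.

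*age-1* (WBGene00000090, chromosome II, 11519323 to 11527062, minus strand) encodes the catalytic subunit of the phosphoinositide 3-kinase. Its normalized counts varied least of the 8 genes, from 124.3 to 180.3 with a median of 147.5 in the mutants and from 111.9 to 157.1 with a median of 128.0 in the controls. The coefficient of variation was 13.4% in the mutants and 13.5% in the controls, and its residual spread fell in the 3.19th percentile of the genes with at least 100 normalized counts. The log2 fold change was 0.18 (SE 0.17, adjusted p = 0.790, limma), with a 95% interval from −0.19 to 0.55.

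The phosphatase gene *daf-18* (WBGene00000913, chromosome IV, 419938 to 425181, minus strand) was the member with the smallest p. Its normalized counts ran from 71.1 to 200.0 in the mutants (median 126.8) and from 149.4 to 306.8 in the controls (median 188.2). Of the 6 mutants, 4 were below the lowest control and 5 below the control median. Mutant replicates 1 and 4 lay within the control range. The means were 129.0 ± 45.1 and 205 ± 60.8 (SD, n = 6), a difference that did not pass after adjustment over all genes (log2 fold change −0.69, SE 0.26, adjusted p = 0.297, limma; unadjusted p = 0.0169).

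*pdk-1* (WBGene00003965, chromosome X, 1321353 to 1327985, plus strand) encodes the kinase that activates the AKT kinases. It was low, with 11.7 to 32.002 normalized counts in the mutants (median 19.05) and 18.5 to 65.0 in the controls (median 31.6). The genotypes overlapped, with 3 mutants below every control, and the lowest read number behind a value was 2 (mutant replicate 4). The log2 fold change was −0.79 (SE 0.40, adjusted p = 0.535, limma), and its 95% interval ran from −1.63 to 0.06.

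*akt-1* (WBGene00000102, chromosome V, 10248907 to 10252895, plus strand) is the more strongly expressed of the AKT kinase genes. Its normalized counts were 279.4 to 748.9 in the mutants (median 668.7) and 527.0 to 1165 in the controls (median 863.0). All 6 mutants were below the control median and 2 were below the lowest control. The log2 fold change of −0.52 (SE 0.26) did not pass (adjusted p = 0.513, limma), and without mutant replicate 1, the lowest library, it was −0.33.

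*akt-2* (WBGene00000103, chromosome X, 14147700 to 14152070, plus strand), the second AKT gene, ranged from 38.5 to 75.7 normalized counts in the mutants (median 53.0) and from 14.4 to 67.6 in the controls (median 48.7). Control replicate 1 was the lowest of the 12. The log2 fold change was 0.34 (SE 0.35, adjusted p = 0.813, limma), and without control replicate 1 it was 0.04.

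*sgk-1* (WBGene00004789, chromosome X, 16254843 to 16262151, minus strand) encodes a kinase related to AKT that also acts with the TORC2 complex. It rested on few reads: 5 of the 12 libraries held at most 3 reads, and the most in any library was 48. Mutant replicate 1, the deepest library, held 1 read (0.29 normalized counts), whereas the other 5 mutants had 9.67 to 19.3 normalized counts. Control replicate 5 had 0 reads, and 3 reads there would be 12.7 normalized counts, within the range of the other libraries. The log2 fold change of 0.54 (SE 0.82, adjusted p = 0.877, limma) was 1.15 without mutant replicate 1, and it turned to −0.05 without control replicate 5 and to −0.80 without the 4 shallow libraries, so no direction is given for *sgk-1*.

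*daf-16* (WBGene00000912, chromosome I, 10750343 to 10776700, plus strand), the FOXO factor at the end of the chain, had 257.4 to 410.4 normalized counts in the mutants (median 382.6) and 247.8 to 389.1 in the controls (median 306.4). Of the 6 mutants, 5 were above the control median, and the mutant replicates 1 and 2 were lower than the other 4. The log2 fold change was 0.17 (SE 0.18, adjusted p = 0.813, limma), and its 95% interval from −0.21 to 0.55 leaves out a doubling or a halving of the transcript. The fitted value was 0.11 without control replicate 4, 0.26 without mutant replicate 2 and 0.09 without the 4 shallow libraries.

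**Figure D2:**
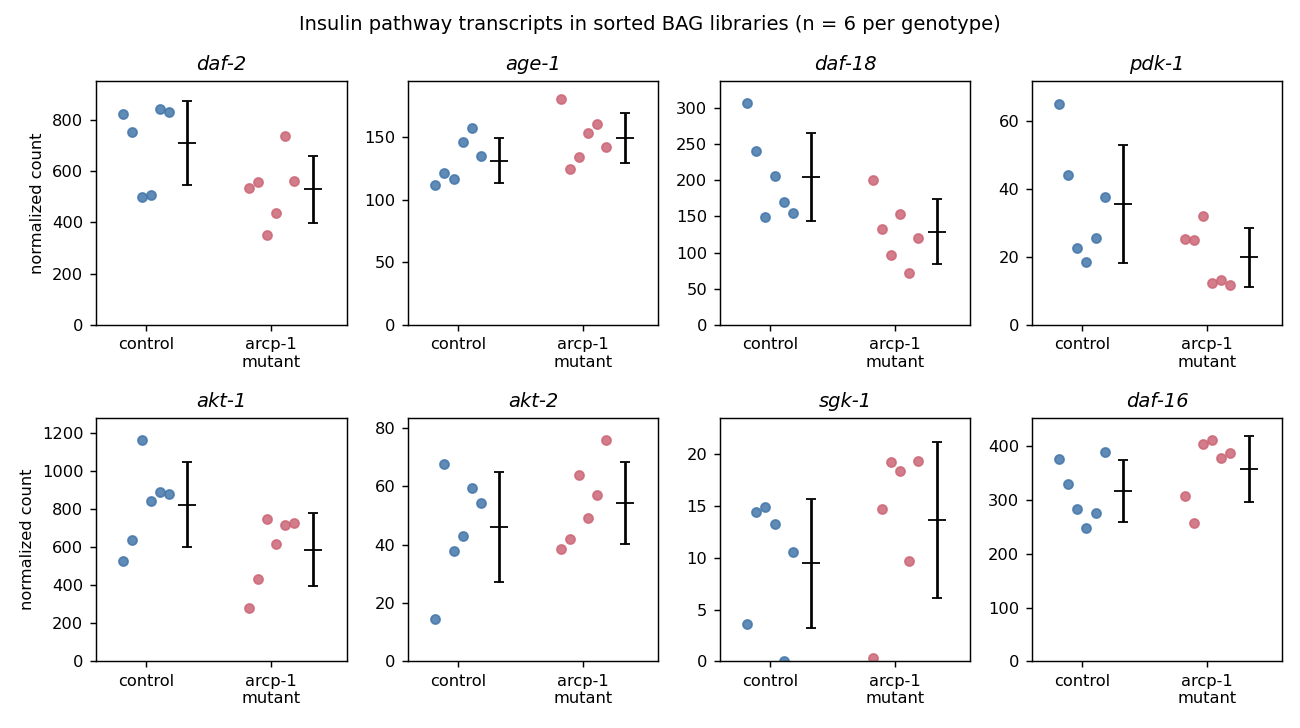
Normalized counts of the 8 genes (y axes, linear, each from 0) in the 6 control and 6 *arcp-1* mutant libraries, with points in replicate order and a black bar for the mean ± SD. The genotypes overlap in every panel, and *daf-18*, *akt-1* and *daf-2* lie lower in most mutants.

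Exons of 4 members overlap another gene on the opposite strand, and reads were counted without strand. The shared stretches were 192 bases of *age-1* with B0334.10, 15 bases of *pdk-1* with F21E9.2, 8 bases of *akt-1* with *rop-1*, and 84 bases of *daf-16* with the noncoding RNA H36N01.5. Of these partners only *rop-1* had normalized counts, with a mean of 242.3. It was higher in the mutants, with means of 315.2 against 169.4 (log2 fold change 0.86, SE 0.18, adjusted p = 0.0221, limma). What the shared bases add to the counts of *akt-1* was not tested.

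*akt-1* and *daf-18* had correlations of opposite sign with the content of BAG RNA. The BAG marker mean, the mean log2(normalized count + 1) of the 6 markers, was 10.5 ± 0.88 in the mutants and 10.5 ± 0.66 in the controls (SD, n = 6), and it was lowest in mutant replicate 1 (8.88) and control replicate 1 (9.34). For *akt-1* the correlation across the 12 libraries was positive (Pearson r = 0.79, permutation p = 0.00329; Spearman rho = 0.65, permutation p = 0.0252), with r = 0.97 within the mutants and 0.84 within the controls. For *daf-18* it was negative (Pearson r = −0.69, permutation p = 0.0132; Spearman rho = −0.64, permutation p = 0.0298), with r = −0.87 within the mutants and −0.90 within the controls. Of the 16 relations computed (8 genes, each with the BAG marker mean and with log10 reads), none passed after Benjamini-Hochberg adjustment. The adjusted permutation p was 0.0526 for *akt-1* and 0.106 for *daf-18*. Without mutant replicate 1 and control replicate 1, r was 0.50 for *akt-1*, whose relation rests on those libraries, and −0.63 for *daf-18*. Among all genes tested, the r of *akt-1* was in the 96.5th percentile and that of *daf-18* in the 5.38th, and the markers and members share libraries and size factors. What other cell types contribute to these relations was not tested.

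**Figure D3:**
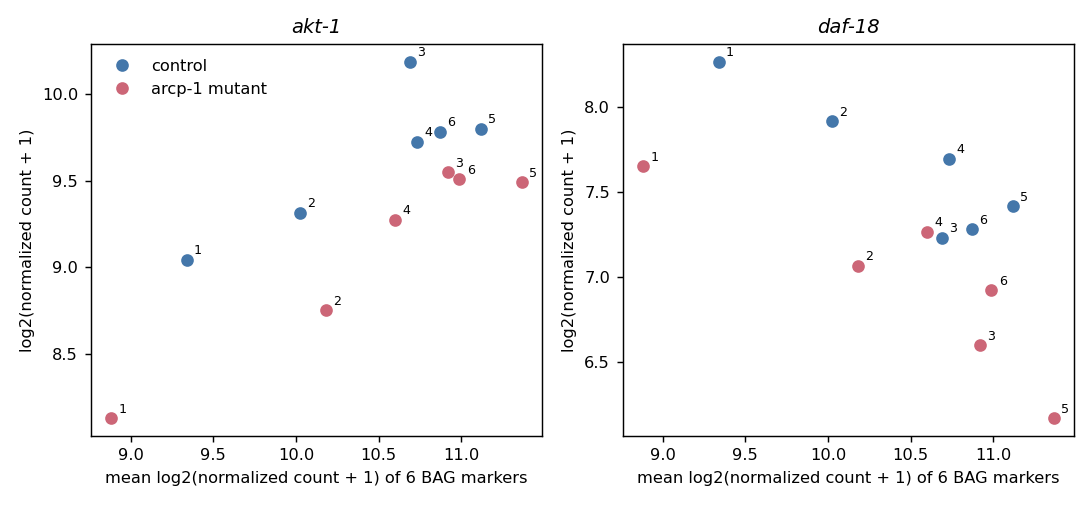
log2(normalized count + 1) of *akt-1* (left) and *daf-18* (right) against the mean log2(normalized count + 1) of 6 BAG markers, one point per library, labelled with its replicate number. Most mutants lie below the controls of similar marker level, and mutant replicate 1 and control replicate 1 lie farthest left.

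When the BAG marker mean was added to the model as a covariate, *akt-1* and *daf-18* passed the threshold, both lower in the *arcp-1* mutants. *akt-1* had a log2 fold change of −0.54 (SE 0.14, adjusted p = 0.0431, limma) and *daf-18* of −0.67 (SE 0.16, adjusted p = 0.0351, limma). The sizes were nearly the same as without the covariate, and the standard errors were smaller. In that fit 111 of 12096 genes were lower (0.918%), so 2 of the 8 members were among them. Adjustment by expression of markers measured in the same libraries is an alternative and not the main test. The adjusted p of the members ranged widely over the 27 alternatives, from 0.0351 to 0.671 for *daf-18* and from 0.0431 to 0.682 for *akt-1*, with the covariate fit the lowest of each. *daf-2* (log2 fold change −0.42, adjusted p = 0.387) and *pdk-1* (−0.77, adjusted p = 0.361) did not pass with the covariate either.

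**Figure D4:**
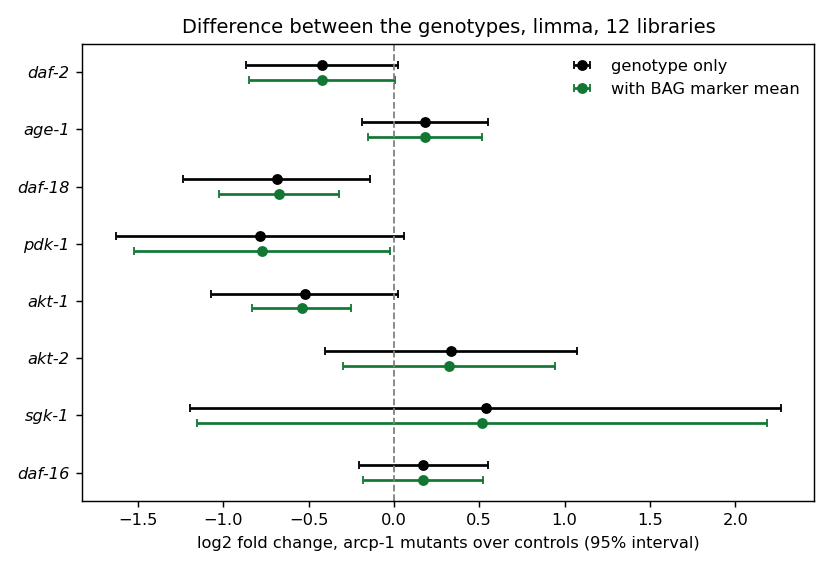
log2 fold change of the 8 genes (x axis, *arcp-1* mutants over controls) with 95% intervals from limma, with genotype alone (black) and with the BAG marker mean as a covariate (green). The intervals of *daf-18* exclude 0 in both fits, those of *akt-1* and *pdk-1* exclude 0 with the covariate, and *sgk-1* has the widest interval.

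Ratios of TPM within a library do not use its size factor. For 5 pairs of functional partners, the log2 ratio of TPM + 1 was compared by exact two-sided permutation tests over all assignments of the genotypes, adjusted over the 5. This adjustment is far milder than that over 12096 genes used for the single genes, so the 2 thresholds are not alike. The pairs were chosen with earlier results of these data known, and ratios of other gene pairs were not computed. The ratio of *daf-18* to *age-1* sets the phosphatase against the kinase with which it competes. It was 0.517 to 1.29 in the mutants (median 1.08) and 1.26 to 3.20 in the controls (median 1.57). Of the 6 mutants, 5 were below every control, and the log2 ratio was lower by 0.84 (permutation p = 0.00433, adjusted p = 0.0216). The highest ratios were those of control replicates 1 and 2, the controls with the lowest BAG marker means. The call was lost when mutant replicate 3 (adjusted p = 0.0649), mutant replicate 6 (0.0541) or control replicate 1 (0.0649) was left out, and the log2 difference stayed between −0.94 and −0.67.

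The ratio of *akt-2* to *akt-1* was 0.0808 to 0.141 in the mutants (median 0.0932) and 0.0280 to 0.108 in the controls (median 0.0575), with all 6 mutants above the control median. Its log2 value was higher in the mutants by 0.82 (permutation p = 0.0216, adjusted p = 0.0397). The ratio of *daf-16* to *daf-2* was 0.769 to 1.91 in the mutants (median 1.05) and 0.543 to 0.945 in the controls (median 0.769). Every mutant exceeded the control median, and 4 exceeded the highest control (log2 difference 0.58, permutation p = 0.0238, adjusted p = 0.0397). Both calls were fragile: with 1 library left out, *akt-2* to *akt-1* passed in 2 of 12 fits (adjusted permutation p from 0.0108 to 0.0812) and *daf-16* to *daf-2* in 3 of 12 (0.0216 to 0.105). Without the 4 shallow libraries the log2 difference of *daf-16* to *daf-2* was 0.18.

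The ratio of *sgk-1* to *akt-1* did not pass (log2 difference 0.96, adjusted permutation p = 0.116). The difference was 0.52 without control replicate 5 and 0.25 without the 4 shallow libraries, and it passed without mutant replicate 1 (1.20, adjusted permutation p = 0.0469). The ratio of *aap-1*, the adaptor subunit of the kinase, to *age-1*, with medians of 2.64 in the mutants and 2.37 in the controls, did not pass either (log2 difference −0.13, adjusted permutation p = 0.623). Without the 4 shallow libraries the smallest permutation p for 4 libraries against 4 is 0.0286, and none of the 5 ratios passed after adjustment. The log2 difference of *daf-18* to *age-1* was −0.77 there (adjusted permutation p = 0.143).

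**Figure D5:**
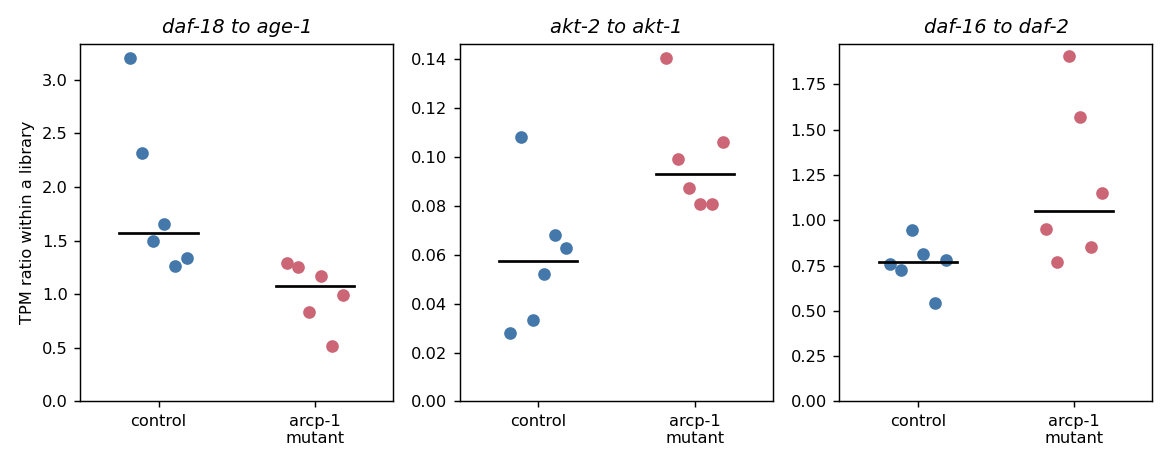
TPM ratios within each library (y axes, linear from 0) for *daf-18* to *age-1*, *akt-2* to *akt-1* and *daf-16* to *daf-2*, with points in replicate order and a line at the median of each genotype (n = 6). The *daf-18* to *age-1* ratio is below the lowest control in 5 of 6 mutants.

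No pair of members had a correlation that passed the test over the 12 libraries of both genotypes. Among the 28 pairs, Pearson r of log2(normalized count + 1) ran from −0.58 to 0.61, and 0 pairs passed (lowest permutation p = 0.0332, lowest adjusted p = 0.521). Spearman rho ran from −0.64 to 0.56 (lowest permutation p = 0.0306, not adjusted). Within a genotype r could differ from the pooled value. For *akt-1* with *daf-18* it was −0.77 in the mutants and −0.94 in the controls, against −0.24 pooled. For *akt-1* with *daf-16* it was 0.75 in the mutants and −0.51 in the controls. These 2 pairs were named after their values were seen, and r within a genotype was not tested. The genes most like each member over the 12 libraries were not other members. For *daf-2* they were *dmd-6* (r = 0.92) and ZK524.4 (0.92), for *age-1* K09C6.2 (0.91) and *kin-26* (0.87), and for *daf-18* *clec-91* (0.93) and ZC317.7 (0.92). For *akt-1* they were H04M03.12 (r = 0.95) and *unc-41* (0.94), the latter an endocytic adaptor of synapses, and for *akt-2* *mdt-11* (0.95), a Mediator subunit, and Y62E10A.2 (0.94). For *pdk-1* they were ZK1127.5 (0.91) and C06H2.7 (0.88), for *sgk-1* ZC487.1 (0.89) and *fbxa-154* (0.89), and for *daf-16* *spp-16* (0.83) and *pros-1* (0.77). These are the highest of 12096 genes over few libraries, and are given as a description.

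Upstream of the receptor, 18 of 40 insulin-like peptide genes were tested, and 1 was higher and 1 lower in the mutants, beside 1.33% and 0.331% of all genes tested. *ins-1*, which encodes a peptide known from sensory learning, was higher: 80.001 to 294.4 normalized counts in the mutants (median 231.8) against 28.9 to 100.4 in the controls (median 81.9). Of the 6 mutants, 5 were above every control (log2 fold change 1.57, SE 0.38, adjusted p = 0.0466, limma). The call was close to the threshold and held in 8 of 27 alternatives, with adjusted p from 0.000236 with the BAG marker mean to 0.474 without the 4 shallow libraries. *ins-35*, which encodes another peptide of the family, was lower. The mutants had 0 to 1.47 normalized counts and no more than 3 reads in a library, against 8.49 to 126.3 normalized counts in the controls (median 24.3). The lowest control, replicate 5, was itself under the floor, since 3 reads there would be 12.7 normalized counts. Taking 3 reads per library as the floor in the mutants, the mean level of *ins-35* was at least 6.01-fold lower. It was called by limma (adjusted p = 0.000823), and was below the threshold in 26 of 26 alternatives. No mutant library reached a CPM of 1 for *ins-35*, so the gene entered the test through the controls, where it was high. The filter and the call thus draw on the same values. Without control replicate 1, the highest control, the bound was 3.73-fold. The other abundant peptide genes, *ins-26* (108.6 TPM) and *ins-6* (69.0 TPM), varied widely among libraries, and neither passed (adjusted p = 0.774 and 0.630, limma).

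Around the chain, 28 of 33 partner genes were tested (such as adaptors, PP2A and TOR complex subunits, 14-3-3 proteins and cofactors of DAF-16), and none passed the limma test. The 2 with an unadjusted p below 0.05 (10.4% of all genes tested had one) were the kinase genes *jnk-1* (log2 fold change −0.65, adjusted p = 0.279) and *aak-2* (−0.70, adjusted p = 0.212), named after their values were seen. The most abundant partners were *par-5* (1205 TPM) and *ftt-2* (308.3 TPM), the 14-3-3 proteins that bind phosphorylated DAF-16, and the deacetylase gene *sir-2.1* (186.4 TPM). *par-5* had 2441 ± 422 normalized counts in the mutants and 2436 ± 339 in the controls (SD, n = 6). Of 9 parallel stress factors, 9 were tested and none passed the limma test. At an unadjusted p below 0.05 there was 1 of the 9, beside 10.4% of all genes, *pha-4* (log2 fold change 1.83, adjusted p = 0.247), also named after its values were seen. The most abundant were *hlh-30* (110.6 TPM), *skn-1* (48.9 TPM) and *nhr-49* (48.2 TPM).

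Of the listed genes that DAF-16 is known to induce, 27 of 32 were matched by name, 16 were tested and none passed the limma test. The fitted value was lower in the mutants for 14 of the 16, beside 52.2% of all genes tested, with a median log2 fold change of −0.64 beside −0.02. Of these 16 genes, 4 had an unadjusted p below 0.05 (*gpd-2*, *hsp-16.2*, *lys-7* and *nnt-1*), beside 10.4% of all genes. *lys-7* had 0 to 3.68 normalized counts in the mutants and 0 to 10.5 in the controls, and *nnt-1* 0 to 10.2 and 0 to 12.5. At 3 reads, mutant replicate 4 would have 18.4 normalized counts and control replicate 5 12.7, so both genes were under this floor there. *ctl-2*, *fat-5* and *ftn-1*, also lower, each had a mutant library at 0. *gpd-2*, a glyceraldehyde-3-phosphate dehydrogenase gene, had 969.7 to 1293 normalized counts in the mutants and 1304 to 1949 in the controls. The genotypes did not overlap, but the adjusted p was 0.146 (log2 fold change −0.51, SE 0.16, limma), and its near-identical copy *gpd-3* makes its count uncertain. The small heat shock gene *hsp-16.41* (757.1 TPM) ranged from 90.6 to 1543 normalized counts in the mutants and from 238.7 to 2713 in the controls. *dod-6* had the highest mean TPM of the list (1195 TPM) through 1 control with 16448 normalized counts, against 6.47 to 286.1 in the mutants.

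Several of these targets are known to be expressed in the intestine. Of 7 intestine markers, none passed the test and 6 had a lower fitted value in the mutants (median log2 fold change −0.59), with summed levels of 81.9 to 373.9 TPM in the mutants and 249.2 to 488.5 TPM in the controls, and none at 0 in all libraries. In 2 other marker lists every tested gene had a lower fitted value, with none past the threshold and none at 0 in all libraries. For the neurons URX, AQR and PQR, 5 of 5 tested markers were lower (median log2 fold change −1.0025). The 6 listed summed to 23.6 to 284.7 TPM in the mutants and 98.0 to 3173 TPM in the controls. *flp-8* had the highest mean of them (396.1 TPM), with 21.2 to 4779 normalized counts in the controls. *gcy-32*, *gcy-34*, *gcy-35* and *gcy-36* averaged only 0.35 to 4.09 TPM. For the germline, 7 of 7 tested markers were lower (252.5 to 909.5 TPM and 290.4 to 717.5 TPM, median log2 fold change −0.28). Fitted values were also mostly lower for motor neuron (6 of 8), body wall muscle (5 of 6) and hypodermis markers (5 of 6). They were mostly higher for markers of pharyngeal muscle (4 of 5), of the sensory neurons AFD, ASE and AWC (3 of 4 tested) and of glia (3 of 5). The part of these marker lists in the values of the DAF-16 targets was not tested. Of the genes known to be lowered by DAF-16, 8 of 13 were tested and none passed the limma test or had an unadjusted p below 0.05, with 4 higher and 4 lower. The yolk protein genes *vit-2* (35.6 TPM) and *vit-5* (17.8 TPM), which are made in the intestine, and *dod-19* (19.2 TPM) were the most abundant of them.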

How the data were processed

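Smart-seq2 libraries of 6 *arcp-1; npr-1* and 6 *npr-1* samples were compared. According to the methods and labels, ribosomal reads were removed with Bowtie2, and reads were trimmed with Trim Galore, mapped with STAR to WS255 (mapping quality 20) and counted with HTSeq without strand. The deposited signal values are counts that the authors divided by DESeq2 size factors. The TPM values were computed by the authors. The authors' results table also holds their DESeq2 fold changes and p-values, which were not used. All values (100%, tolerance 1e-06 of a read) were whole multiples of 1 read. Counting intervals were not used, since PCR copies are not independent molecules.

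limma 3.58.1 in R 4.3.3 was fitted with a trend to log2(normalized count + 1) of 12096 genes. Alternatives included edgeR 4.0.16 and DESeq2 1.42.0 on recovered reads, other pseudocounts, filters and normalizations, covariates, and leaving out each library. The limma, edgeR and DESeq2 fits with genotype as the only term were tested on simulated data. The fits with covariates, the other alternatives and the permutation tests were not. Positions follow the deposited loci, and overlaps follow the Ensembl annotation. Named genes were all 8 members, *arcp-1*, genes of 5 lists past the threshold, the 3 most abundant of each list, and the 2 genes most alike each member. Members, lists, ratios and markers were chosen with earlier results of these data known.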

Additional observations from a re-analysis of the deposited data

How the results depend on the processing

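None of the 8 members passed the threshold under any alternative other than the BAG marker covariate, with which 2 did (*akt-1* −0.54 and *daf-18* −0.67 on the log2 scale). Of 213 alternative log2 fold changes of members, 2 turned direction, both of *sgk-1*, to −0.80 without the 4 libraries under 1000000 reads (an alternative chosen after seeing the data) and to −0.046 without control replicate 5 (up to 1.15 with another library left out). The number of genes past the threshold, 201, was 99 among genes averaging 100 or more normalized counts, where the 3 members below it were not tested, 484 with library weights, 404 with DESeq2, 382 with the BAG marker mean, 110 without the 4 shallow libraries, and 124 (without mutant replicate 6) to 329 (without mutant replicate 1) with 1 library left out. Within either genotype, 0 neighbours in the order of levels passed, where 6 libraries allow no permutation p below 0.0312 and the order in the mutants makes other pairs neighbours. The number of ratios past the threshold, 3, was 0 to 3 with 1 library left out and 0 without the shallow libraries. The *aap-1* to *age-1* difference turned to 0.047 without mutant replicate 1 (−0.25 with another library left out) and to 0.029 without the shallow ones. With TPM, 1 relation to the BAG marker mean passed, that of *akt-1* (r = 0.82, adjusted permutation p = 0.0251). Over all genes, deviations of same-numbered libraries correlated with r over 0.1 in 2 of 6 pairs (0.0385 to 0.317). The best match of 2 mutants and 3 controls was the library of their own number. The main tests were unpaired, and these values do not show that same-numbered libraries were independent. The BAG marker mean did vary together between same-numbered libraries (Pearson r = 0.98, exact permutation p = 0.00417; Spearman rho = 0.94, p = 0.0167; r = 0.91 without 2 pairs). *daf-2*, *akt-1* and *daf-18* were lower in the mutant in 6 of 6 same-numbered comparisons, and *age-1* in 0 of 6. With the replicate number as a block, 291 genes and 0 members passed, with adjusted p of 0.0591 for *daf-18*, 0.0681 for *akt-1* and 0.129 for *daf-2* (limma).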
